A study of Ambystoma mexicanum with 60 samples.

Results

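Of the 28909 transcripts counted in early embryos of the axolotl (Ambystoma mexicanum, a urodele amphibian), 12664 carried no human gene symbol. Of these, 61 were near 0 at the 1- and 4-cell stages and first reached a mean total of 100 at the 64-cell stage. They were chosen by their deposited normalized totals, the counts of an embryo summed over its sections and divided by 1 factor per embryo. Mean totals had to be under 20 in 1-cell and in 4-cell embryos, while the 64-cell mean had to reach 100 and at least 5 times the 4-cell mean plus 1. The low values at the first stages and the rise by 64 cells were thus set by the choice. They are given as a description, with no test. The sections of the embryo and the 1K-cell stage were not used for it.

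Naturally laid, fertilized eggs of untreated adults were collected at 4 stages, the 1-cell, 4-cell, 64-cell and 1K-cell stage (early blastula), with 3 embryos each. Each embryo was frozen and cut from the animal pole to the vegetal pole into 5 sections, A (extremely animal) to E (extremely vegetal), and the RNA of each section was sequenced after removal of ribosomal RNA (TOMO-seq). Section D of 1-cell embryo 3, which the labels call an outlier, was not used, which leaves 59 libraries, and the total of that embryo holds 4 sections. The embryos came from 2 independent experiments with different parents, and which embryo came from which is not given, so parents and embryos cannot be told apart.

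An amphibian egg is filled with maternal RNA made during oogenesis. Cleavage runs on this store while the embryo's own genome is largely silent, until transcription starts broadly at the mid-blastula transition. Transcripts near 0 in the fertilized egg and counted during cleavage are therefore followed stage by stage here; whether they were newly made was not tested. The role of the 61 transcripts is not known from the sources used here, and each is named by its transcript ID only. Of the 61, 60 (98.4%) were absent from the ortholog table altogether, and the remaining transcript, AMEXTC_0340000067485, was listed with a homologous protein but no gene symbol. Among all transcripts without a symbol, 2352 of 12664 (18.6%) were absent from that table, and among the 530 unnamed transcripts that met the same limits 1 stage later, at the 1K-cell stage, 523 (98.7%) were. None of the 61 had a paralog listed there. Of the transcripts with a symbol, only UACA passed the same stage limits.

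Counts of some of the 61 transcripts differed between libraries above and below 4500000 counts. Libraries of 1-cell embryos held 1780255 to 5783104 counts, those of 4-cell embryos 1546418 to 4740660, those of 64-cell embryos 2393917 to 6001350 and those of 1K-cell embryos 2753105 to 5883288. Of the 61 transcripts, 11 had a count of 0 in 10 or more of the 30 libraries of the 64-cell and 1K-cell stages, and 50 had a count of 0 in at most 6 of them. This limit was set after the values were seen. The 11 were found almost only in the 12 libraries above 4500000 counts. Summed over the 11, the 8 such libraries of the 1K-cell stage held 18477 counts and the other 7 held 8, and the 4 such libraries of the 64-cell stage held 9635 counts and the other 11 held 28. The lowest sum among the 1K-cell libraries above 4500000 counts was 1112 counts, and the highest among those below was 6. In the whole table, 77 of the 27787 transcripts with 100 or more counts over these 30 libraries had over 95% of their counts in the 12 libraries, which held 50.5% of all counts; 63 of the 77 had no symbol and 11 were the transcripts described here. The 3 libraries above 4500000 counts at the 1- and 4-cell stages held only 2, 28 and 14 counts of the 11. What else these libraries share was not tested. Totals are given below mainly for the 50 and for the 11 apart. Section tests are given for all 61, with the part of the 50 and the 11 beside them.

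**Figure D1:**
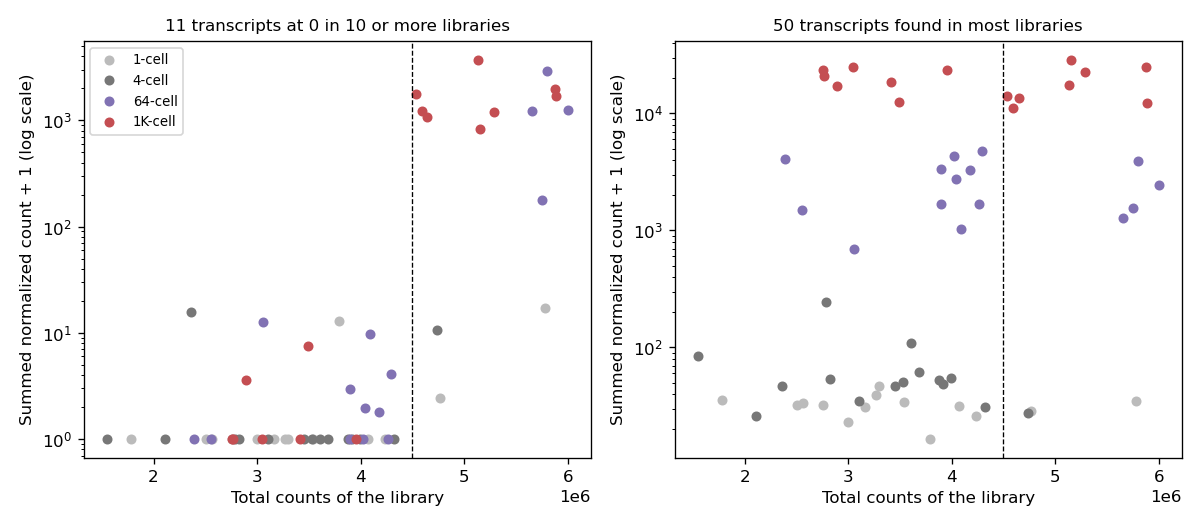
Summed normalized count plus 1 (log scale) against the total counts of the library, 1 point per library, coloured by stage; left, the 11 transcripts at 0 in 10 or more of the 64-cell and 1K-cell libraries, right, the other 50. The dashed line marks 4500000 counts. On the left, every 64-cell and 1K-cell library to the right of the line lies above 100 and every one to its left lies below 20, while on the right the 50 transcripts show no such step.

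At the 1-cell stage the 50 transcripts were at or near background. Their mean totals lay between 0 and 18.2 with a median of 1.69, 13 of the 50 had no count in any of the 14 libraries, and the largest count in a single library was 16. At the 4-cell stage all 50 had at least 1 count somewhere, with mean totals of 0.315 to 20.0 and a median of 4.35. At the 64-cell stage the means were 102 to 825 with a median of 200.3, and at the 1K-cell stage 50.1 to 6687 with a median of 1510. Summed over the 50, the normalized totals of the embryos were 162, 161 and 144 for 1-cell embryos, and 415, 259 and 214 for 4-cell embryos. The 64-cell embryos had 20631, 8195 and 10137, the 1K-cell embryos 130860, 88860 and 74370. All 61 together made up 0.681%, 0.499% and 0.411% of the counts of the 1K-cell embryos, against 0.140%, 0.0560% and 0.0684% in the 64-cell embryos. All 1K-cell embryos thus stood above all 64-cell embryos in the summed level. Values are per library, so a transcript in more cells and more of it per cell cannot be told apart.

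**Figure D2:**
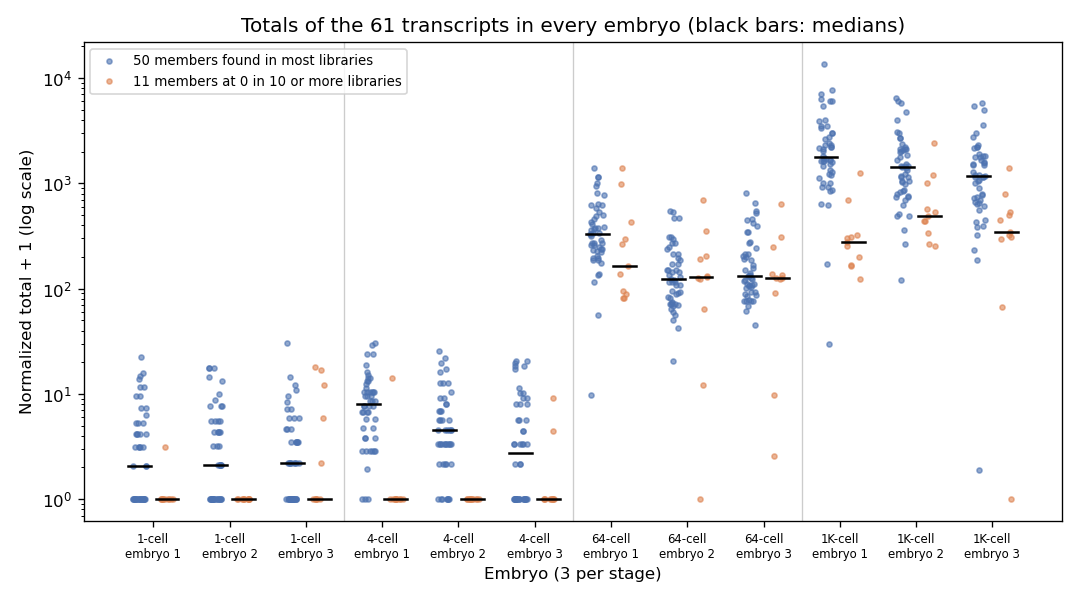
Normalized total plus 1 (log scale) of each of the 61 transcripts in each of the 12 embryos, 1 point per transcript, with the 50 transcripts found in most libraries in blue, the 11 found almost only in libraries above 4500000 counts in orange, and medians as black bars. Most points lie below 30 at the 1- and 4-cell stages, around 100 to 1000 at the 64-cell stage and around 1000 at the 1K-cell stage.

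The question for the last stage was whether transcripts that first passed the limit at 64 cells stood higher or lower at 1K cells. Of the 61, 38 rose at the 1K-cell stage over the 64-cell stage at an adjusted p under 0.01 (edgeR's quasi-likelihood test over all 28909 transcripts; some stage also had to have a mean over 20), and none fell. Over all transcripts, 3.12% rose (901) and 0.0623% fell (18). All 38 belonged to the 50 found in most libraries, and none to the 11. The 38 were 4.88- to 15.5-fold higher at the 1K-cell stage, with a median of 7.79-fold. The median log2 change was 2.81 over the 50 and 2.64 over all 61, against 0.01 over all transcripts. It was 5.58 over the 530 unnamed transcripts that met the limits 1 stage later, which were chosen on this contrast. The totals of the 3 1K-cell embryos lay above those of all 3 64-cell embryos in 56 of the 61 transcripts and below in none. Of all transcripts, 11.0% lay above and 7.6% below. The 56 were 47 of the 50 and 9 of the 11, whose totals come almost only from the libraries above 4500000 counts. The 5 with overlapping groups were AMEXTC_0340000004563, AMEXTC_0340000012511, AMEXTC_0340000045095, AMEXTC_0340000203519 and AMEXTC_0340000258592. The 64-cell totals enter both the choice and this comparison.

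**Figure D3:**
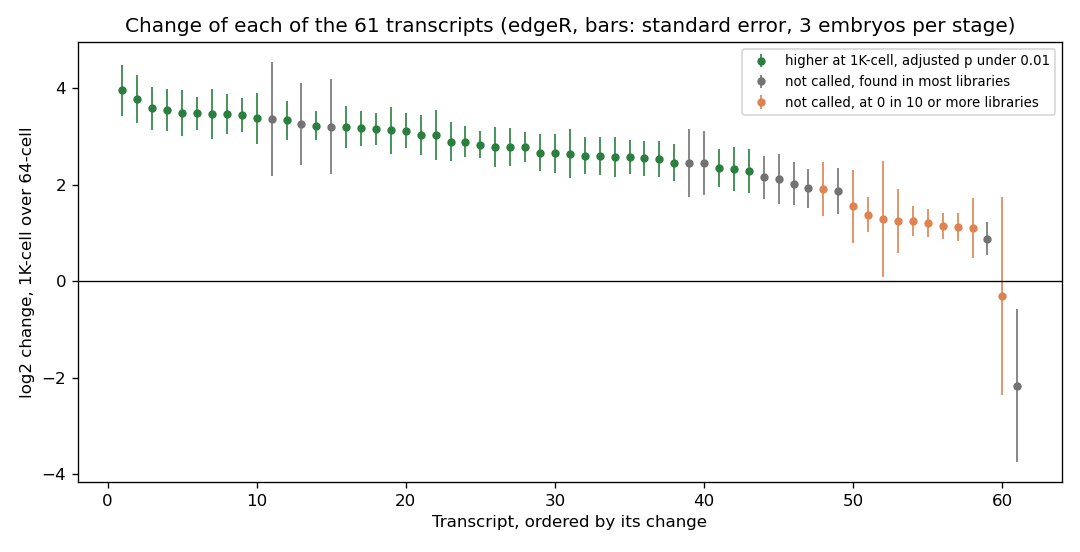
Log2 change, 1K-cell over 64-cell, of each of the 61 transcripts in descending order, with standard errors from edgeR (3 embryos per stage). The 38 transcripts called higher (green) span 2.29 to 3.96; 2 transcripts lie below 0, and neither is called.

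Among the transcripts with the highest counts at 64 cells, AMEXTC_0340000030865 had totals of 6268, 5821 and 4947 in the 1K-cell embryos and of 1382, 544 and 549 in the 64-cell embryos. In the 4-cell embryos it had 29.3, 21.0 and 2.32, and in the 1-cell embryos 2.13, 4.47 and 1.23. Its log2 change at the 1K-cell stage was 2.78 ± 0.39 (SE, edgeR adjusted p = 0.0010). The groups did not overlap, and 64-cell embryo 1 stood more than 2-fold above the other 64-cell embryos.

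AMEXTC_0340000234455 had 7767, 6469 and 5826 in the 1K-cell embryos and 1159, 471 and 517 in the 64-cell embryos, a log2 change of 3.22 ± 0.30. AMEXTC_0340000218897 had 7082, 6039 and 5411 in the 1K-cell embryos and 1152, 469 and 461 in the 64-cell embryos, with a change of 3.15 ± 0.33. Both reached an edgeR adjusted p of 0.0001, and in both embryo 1 was the highest at either stage. AMEXTC_0340000013293 had 6062, 4776 and 3560 in the 1K-cell embryos and 1009, 308 and 444 in the 64-cell embryos, a change of 3.03 ± 0.42. AMEXTC_0340000046309 had 5390, 3983 and 3011 in the 1K-cell embryos and 940, 306 and 422 in the 64-cell embryos, a change of 2.89 ± 0.40. In both the lowest 1K-cell embryo lay more than 3-fold above the highest 64-cell embryo.

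The 5 transcripts with the largest change had 64-cell means below 200.3, the median of the 50. AMEXTC_0340000045236 led with 2287, 1392 and 1676 in the 1K-cell embryos and 224, 40.9 and 77.5 in the 64-cell embryos, a log2 change of 3.96 ± 0.53 (edgeR adjusted p = 0.0015). It had 1 count over the 1- and 4-cell libraries together. AMEXTC_0340000018312 had 3326, 2368 and 2336 in the 1K-cell embryos and 359, 92.1 and 129 in the 64-cell embryos, a change of 3.78 ± 0.50. The next, AMEXTC_0340000239882, AMEXTC_0340000028681 and AMEXTC_0340000157492, changed by 3.59 ± 0.44, 3.55 ± 0.44 and 3.49 ± 0.48. Without 64-cell embryo 3, AMEXTC_0340000045236 missed the threshold (3.74, edgeR adjusted p = 0.0109). The other 4 kept their call without any 1 embryo.

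The 12 of the 50 transcripts that were not called fell into several kinds. For 3 of them, AMEXTC_0340000078966, AMEXTC_0340000115240 and AMEXTC_0340000192202, the edgeR adjusted p was between 0.01 and 0.02 with changes of 2.16, 2.02 and 1.92, below the smallest change among the called transcripts, 2.29. AMEXTC_0340000084417, with 642, 485 and 395 in the 1K-cell embryos and 272, 70.7 and 75.1 in the 64-cell embryos, had a change of 1.86 ± 0.48 (edgeR adjusted p = 0.0472). AMEXTC_0340000053967 was close to level among the 64-cell embryos, with 171, 265 and 232 in the 1K-cell embryos and 114, 127 and 121 in the 64-cell embryos (0.89 ± 0.34, edgeR adjusted p = 0.251). By library it resembled the 11: its normalized count was 69.9, 64.2 and 63.0 in sections C of 64-cell embryo 1, D of embryo 2 and A of embryo 3, all above 4500000 counts, and 14.0 or less in the other 12 64-cell libraries.

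For 3 transcripts 1K-cell embryo 1 stood more than 5 times above both other 1K-cell embryos. They were singled out after their values were seen. AMEXTC_0340000045095 had 13543, 823 and 689 in the 1K-cell embryos and 134, 531 and 802 in the 64-cell embryos. AMEXTC_0340000010410 had 6009, 755 and 652 in the 1K-cell embryos and 138, 247 and 391 in the 64-cell embryos. AMEXTC_0340000082460 had 4000, 361 and 325 in the 1K-cell embryos and 55.5, 184 and 269 in the 64-cell embryos. In all 3, embryo 1 was the highest at the 1K-cell stage and the lowest at the 64-cell stage, the reverse of the usual 64-cell order. The excess was spread along the whole axis: for AMEXTC_0340000045095 the 5 sections of 1K-cell embryo 1 held 1899, 3130, 2224, 3245 and 1689 normalized counts from A to E, which is 7.99 to 24.1 times the higher of the other 2 embryos in the same section. Its log2 change was 3.36 ± 1.18 (edgeR adjusted p = 0.216) and dropped to 0.63 without 1K-cell embryo 1. Of all transcripts with a 1K-cell mean above 100, 7 of 20168 had embryo 1 more than 5 times above both others, and 3 of the 7 were these. Since parents are not given by embryo, a difference between parents was not tested.

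AMEXTC_0340000004563 was the single transcript of the 50 that did not increase. It had 28.6, 121 and 0.91 in the 1K-cell embryos and 8.72, 19.5 and 645 in the 64-cell embryos, so its 64-cell mean of 224 rests on embryo 3. Its log2 change of -2.16 ± 1.59 (edgeR adjusted p = 0.654) became 1.82 without 64-cell embryo 3. Totals in the 4-cell embryos were 6.62, 0 and 17.4, and no 1-cell embryo had a count. UACA, the only transcript with a symbol within the same limits, has the same shape, with 21.9, 0.91 and 32.7 in the 1K-cell embryos and 0, 6.51 and 294 in the 64-cell embryos (-2.43 ± 1.72, edgeR adjusted p = 0.629).

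**Figure D4:**
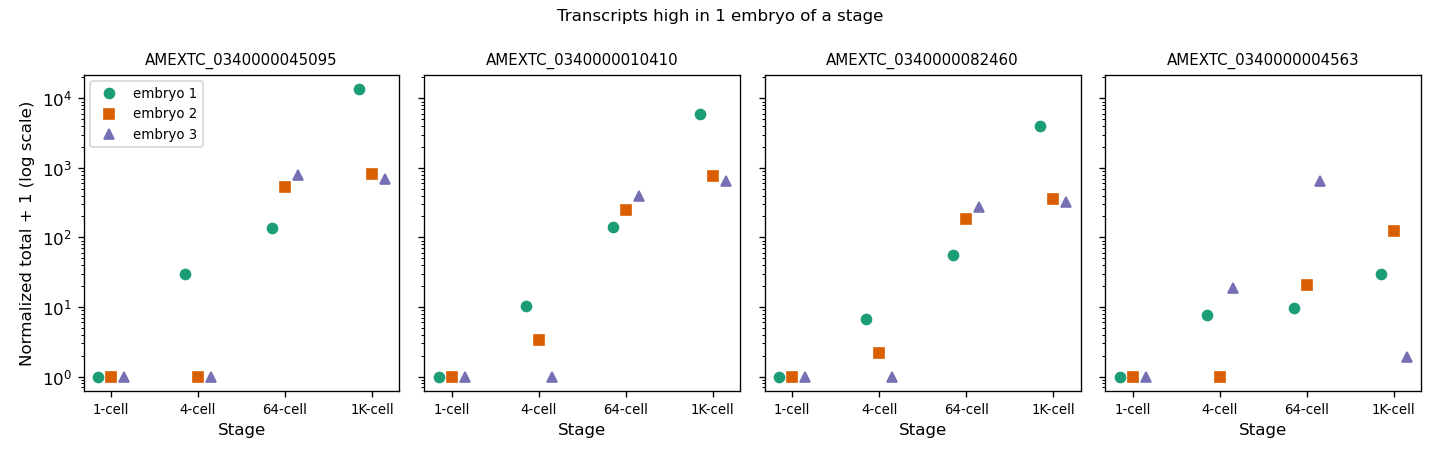
Normalized total plus 1 (log scale) in each of the 3 embryos of the 4 stages for AMEXTC_0340000045095, AMEXTC_0340000010410, AMEXTC_0340000082460 and AMEXTC_0340000004563. In the first 3, 1K-cell embryo 1 lies far above the others (13543, 6009 and 4000), while in the last 64-cell embryo 3 does (645).

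The 11 transcripts found almost only in the libraries above 4500000 counts gave no call in the main edgeR fits. For totals, DESeq2 called 2 of them higher at the 1K-cell stage. In edgeR, 1 was called with only the 64-cell and 1K-cell embryos, with summed normalized section counts, and without 1-cell embryo 3. The log2 changes of the 11 ran from -0.31 to 1.91 with a median of 1.25. All 1K-cell totals lay above all 64-cell totals in 9 of them, where 11.0% of all transcripts did. There were 8 libraries of that depth at the 1K-cell stage and 4 at the 64-cell stage, which enters every such total. Within these libraries the levels of both stages overlapped. AMEXTC_0340000068409, with the second highest 64-cell mean of the 61, had totals of 1252, 2395 and 1397 in the 1K-cell embryos and 990.5, 692 and 633 in the 64-cell embryos (1.12 ± 0.28, edgeR adjusted p = 0.0837). Its normalized count in the 8 1K-cell libraries was 229 to 1053 with a median of 393, and in the 4 64-cell libraries 8.74 to 721 with a median of 440. It had no count in the other 7 1K-cell libraries and 1 count over the other 11 64-cell libraries.

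AMEXTC_0340000069983 had 311, 492 and 497 in the 1K-cell embryos and 94.4, 204 and 310 in the 64-cell embryos. Its normalized counts in the libraries above 4500000 counts were 106 to 154 at the 1K-cell stage and 68.7 to 127 at the 64-cell stage, and it was at 0 in all others. AMEXTC_0340000065961, just inside the limit with a 64-cell mean of 103, had 165, 264 and 306 in the 1K-cell embryos and 87.2, 131 and 90.2 in the 64-cell embryos (1.25 ± 0.32, edgeR adjusted p = 0.0830). AMEXTC_0340000203519 was narrower still, with 122, 1011 and 0 in the 1K-cell embryos and 1394, 0 and 8.78 in the 64-cell embryos. Its normalized count was 843 in section E of 1K-cell embryo 2 and 1015 in section C of 64-cell embryo 1, and in no other library of these stages above 81.0. Both its high values are single sections with 0 in the neighbouring sections. Those neighbours are all libraries below 4500000 counts, where the 11 were at or near 0. These zeros therefore do not place it along the axis. Among the libraries above 4500000 counts its median was 0 at the 1K-cell stage and 3.18 at the 64-cell stage. Sections A and C of 1K-cell embryo 2, both of that depth, held 5.53 and 0. AMEXTC_0340000258592 was likewise uneven, with 164, 531 and 66.2 in the 1K-cell embryos and 297, 11.2 and 1.60 in the 64-cell embryos, while AMEXTC_0340000203353, with 688, 1202 and 786 in the 1K-cell embryos and 428, 352 and 248 in the 64-cell embryos, was spread over all 6. Both were picked after their values were seen.

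Without the libraries above 4500000 counts, an alternative chosen after seeing the data, 35 of the 61 transcripts still met the limits. Of the 61, 30 were called higher at the 1K-cell stage, all of them among the 50. The totals left hold unlike sections: A, C and E of 1K-cell embryo 1, B and D of embryo 2, and A and E of embryo 3. At the limit itself, the values are continuous. The members closest to it were AMEXTC_0340000234466 with a 64-cell mean of 102 and AMEXTC_0340000065961 with 103, and just outside were AMEXTC_0340000058614 with 99.6 and AMEXTC_0340000000018 with 96.5. AMEXTC_0340000234466 had 627, 489 and 382 in the 1K-cell embryos and 175, 69.8 and 60.7 in the 64-cell embryos, and was the called transcript with the smallest change (2.29 ± 0.45, edgeR adjusted p = 0.0096). The 1K-cell means of the 2 outside were 211 and 1265.

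The embryos of a stage differed in a way that most of the 50 transcripts shared. At the 1K-cell stage 41 of the 50 (82.0%) had their totals in the order embryo 1, 2, 3 from high to low. This order held for 26.3% of the 28772 transcripts with a stage mean above 20. It held for 85 of the 530 (16.0%) unnamed transcripts that met the limits 1 stage later. At the 64-cell stage 45 of the 50 (90.0%) were highest in embryo 1, against 31.1% of the 28772 and 278 of the 530 (52.5%). Embryo 1 exceeded the mean of embryos 2 and 3 by a median of 1.39-fold at the 1K-cell stage and 2.68-fold at the 64-cell stage. At the 4-cell stage, at a few counts per embryo, 30 of the 50 (60.0%) were highest in embryo 1, against 32.4% of the 28772. The 4-cell and 64-cell totals entered the choice of the 50, and neither the 28772 nor the 530 were chosen on a high 64-cell mean. The shares at these stages are therefore a description, not a comparison with a like background. The 1K-cell totals were not used to choose the 50. Because the 50 move together between embryos, they are not 50 separate measurements of a stage. Without 64-cell embryo 1, their common high embryo, 43 of the 61 were called higher at the 1K-cell stage and the median log2 change was 3.24, and without 64-cell embryo 3 it was 27 and 2.46.

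Where along the animal-vegetal axis the transcripts lay was asked within each stage in a model that also held the embryo. At the 1K-cell stage 1 of the 61 was called for section, where 3.55% of all transcripts were, and at the 64-cell stage 1 of 61, where 3.7% were. Each of these edgeR shares rests on 1 transcript. At an unadjusted edgeR p under 0.05 there were 17 of the 61, all among the 50, and 4692 of 28909 at the 1K-cell stage. At the 64-cell stage there were 1 of the 61 and 4584 of 28909. DESeq2's likelihood-ratio test called 10 of the 61 at the 1K-cell stage, all among the 50. The 10 of 61 were a larger share than the 9.27% of all transcripts, so the comparison with the background there depends on the test. The direction of the 10 is the sign of their vegetal-to-animal difference, which was not itself tested. It was vegetal for 3 (6.42% of all transcripts) and animal for 7 (2.85%). At the 64-cell stage DESeq2's test called 1 of the 61, beside 9.92%.

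The call at the 1K-cell stage was AMEXTC_0340000084417. From A to E its normalized counts were 130.0, 106, 83.5, 121 and 222 in embryo 1, 104, 37.3, 77.4, 72.1 and 146 in embryo 2, and 90.5, 44.2, 46.4, 62.1 and 209 in embryo 3. Section E was the highest in all 3 embryos, with A second in all 3. Section D lay below A and above B in all 3 embryos. The mean of sections D and E stood above that of A and B by 0.66 ± 0.18 on the log2 scale (SE). The adjusted p of 0.0090 came from the edgeR test over all sections together, not from this difference. No setting without 1 of the 3 embryos kept this call.

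At the 64-cell stage the call was AMEXTC_0340000004563, the transcript that is high in embryo 3 only. Section values in that embryo were 58.9, 61.8, 62.4, 143 and 400.3 from A to E, and the vegetal-to-animal difference was 1.96 ± 0.29. The edgeR test over all 5 sections gave an adjusted p of 0.0030. In 64-cell embryos 1 and 2 the sections held 0 to 4.47 and 1.16 to 8.73. At the 1K-cell stage, 2 of the 3 embryos had the same direction at low counts, with 10.4, 11.6, 9.78, 28.0 and 54.2 in embryo 2 and 0, 4.43, 0.95, 5.25 and 20.2 in embryo 1, and embryo 3 had 0.80 in section C alone. The vegetal-to-animal difference at the 1K-cell stage was 1.92 ± 0.76 (edgeR adjusted p over all 5 sections = 0.429).

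For the 50 transcripts as a set, the section profile differed between embryos. Single transcripts could share their highest section: AMEXTC_0340000013293 was highest in A in all 3 1K-cell embryos (1424, 1314 and 1048). Summed over the 50, the 1K-cell sections from A to E held 18.6%, 20.0%, 18.7%, 22.8% and 19.9% of the embryo's normalized counts in embryo 1. Embryo 2 had 26.9%, 20.5%, 16.8%, 14.9% and 20.9%, and embryo 3 had 24.4%, 16.2%, 14.5%, 17.8% and 27.1%. The lowest section was C or D in embryos 2 and 3. In embryo 1 it was A, close to C (18.6% and 18.7%), and the 3 transcripts that stood far higher in that embryo enter these sums. Section A was the highest for 40 of the 50 transcripts in embryo 2 (22.6% of all transcripts with a stage mean above 20), section E for 33 in embryo 3 (30.1%), and section D for 23 in embryo 1 (15.3%). Among the 530 unnamed transcripts that first met the limits at this stage, section A was the highest for 280 (52.8%) in embryo 2. Section E was the highest for 102 (19.2%) in embryo 3 and section D for 273 (51.5%) in embryo 1. The median vegetal-to-animal difference of the 61 was -0.06, against -0.02 over all transcripts. It was -0.04 over the 50 and -0.22 over the 11. For the 61 it was 0.08 without embryo 2, -0.10 without embryo 1 and -0.18 without embryo 3.

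At the 64-cell stage the shares were less even. From A to E they were 24.2%, 21.9%, 19.9%, 16.7% and 17.2% in embryo 1, so the animal end was higher there. In embryo 2 the shares were 9.49%, 14.1%, 20.4%, 33.1% and 22.9%, and in embryo 3 they were 11.1%, 14.8%, 13.7%, 36.1% and 24.3%, with the peak in section D in both. The sections of all transcripts with a stage mean above 20 held 18.8% to 21.9% in these embryos. Section D was the highest section for 41 of the 50 transcripts in embryo 2 and for 43 in embryo 3, where 12.6% and 20.2% of all those transcripts peaked there, and section A for 27 in embryo 1 (19.2%). Among the 530 unnamed transcripts that met the limits 1 stage later, the shares were 22.6%, 31.5% and 28.9%. Those 530 had 64-cell means under 20, so their sections hold few counts. The vegetal sections were higher than the animal ones for 50 and 49 of the 50 transcripts in embryos 2 and 3, and for 2 in embryo 1. Depth differed between these libraries: section D had 6001350 counts in embryo 2, the highest of the stage, and 2393917 in embryo 3, the lowest. At the 1K-cell stage the section with the highest share had the most counts of embryo 2 (A, 5291065). In embryo 3 it had the fewest (E, 2768323), and sections B, C and D there had 5883288, 4588843 and 4645530. Whether depth bears on the section shares was not tested.

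The median vegetal-to-animal difference of the 61 transcripts at the 64-cell stage was 0.59 on the log2 scale, against -0.03 over all transcripts. It was 0.60 over the 50 and 0.10 over the 11. For the 61 it was 1.25 without embryo 1, 0.34 without embryo 2 and 0.33 without embryo 3, so its size depended on the embryos included. With 3 embryos, of which 1 runs the other way, no single transcript but AMEXTC_0340000004563 passed the test.

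**Figure D5:**
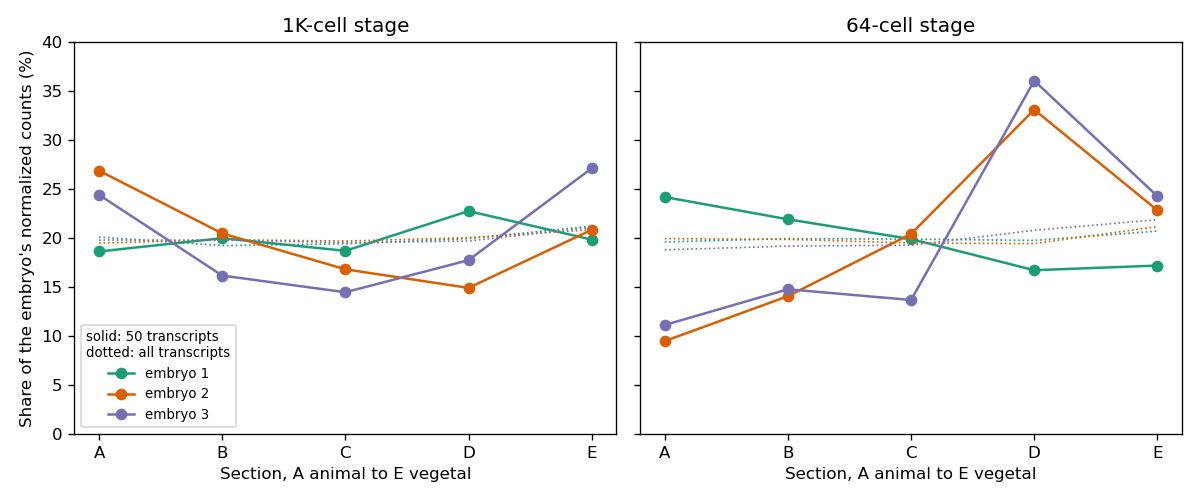
Share (%) of an embryo's normalized counts in each section from A (animal) to E (vegetal), left at the 1K-cell stage and right at the 64-cell stage, with 1 line per embryo; solid lines are the 50 transcripts summed and dotted lines all transcripts with a stage mean above 20. At 1K cells the 3 embryos lie between 14.5% and 27.1% in every section, and at 64 cells embryos 2 and 3 peak in D (33.1% and 36.1%) and embryo 1 in A (24.2%).

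Summed over the 50 transcripts, the mean level was higher in every section at the 1K-cell stage. Their summed normalized count in section A was 21518 ± 2520 at the 1K-cell stage and 2239 ± 2195 at the 64-cell stage (SD, n = 3 embryos each). In section D it was 18200 ± 8961 at the 1K-cell stage and 3275 ± 844 at the 64-cell stage. The mean was 9.61 times as high in A, 7.78 in B, 6.98 in C, 5.56 in D and 8.07 in E. Whether the section difference of a transcript changed between the stages was tested with an interaction term, and none of the 61 was called (edgeR, adjusted p under 0.01), nor was any of the 28909 transcripts (0.0%). At an unadjusted p under 0.05 there were 6 of the 61 and 1238 of 28909, and DESeq2 called 0 of the 61 and 40 of 28909 (0.138%). The smallest edgeR adjusted p among the 61 was 0.887, for AMEXTC_0340000024318, with a change of -0.97 ± 0.25 in its vegetal-to-animal difference.

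Some of the 61 have neighbouring IDs, which the choice did not use. Pairs within 10 of each other were AMEXTC_0340000209212 and AMEXTC_0340000209213, AMEXTC_0340000218897 and AMEXTC_0340000218901, and AMEXTC_0340000065954 and AMEXTC_0340000065961, and AMEXTC_0340000234455, AMEXTC_0340000234457 and AMEXTC_0340000234466 formed a run. In the last run all 3 were called higher at the 1K-cell stage, with changes of 3.22, 2.58 and 2.29. Whether such transcripts share sequence was not tested, and counts estimated for transcripts that do share sequence are uncertain.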

How the data were processed

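RNA was measured in 59 section libraries of 12 embryos. Per the labels, libraries were made from 100 ng of total RNA with a directional kit after ribosomal RNA depletion. The authors trimmed the reads with Trimmomatic and estimated counts per transcript with kallisto 0.43.1, and the deposited expected counts are whole numbers. The 61 transcripts were chosen on deposited normalized totals, a score that equals the sum of these counts over the sections of an embryo divided by 1 factor per embryo, to within 0.001 counts in all 346908 values; the authors made it with DESeq2. Human symbols came from the deposited ortholog table. Other deposited tables were not used.

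Members, lists and tests were chosen with earlier results of these data known. Section counts were normalized by dividing by a median-of-ratios size factor per library. edgeR 4.0.16 (limma 3.58.1, R 4.3.3) tested totals of all 12 embryos by stage, sections within a stage with a term for embryo, and stage by section over 30 libraries. Calls needed a Benjamini-Hochberg adjusted p under 0.01 over 28909 transcripts and some stage mean over 20. On simulated counts with a true log2 change of 2, 61% (totals), 53% (sections) and 47% (stage by section) of changed transcripts were recovered. With a true log2 change of 1, the shares were 29%, 24% and 20%. The changed transcripts were drawn from all those with a mean count above 20 and simulated independently, while most of the 61 moved together between embryos. Named transcripts were the 8 with the highest 64-cell mean, the 5 largest and 5 smallest changes, those called for section, and the neighbours of the limit of 100; any other transcript was picked out after its values were seen. Per the labels, replicates are biological. Alternatives were DESeq2 1.42.0, TMM, CPM, a low-count filter, a replicate block, other inputs and leaving out each embryo. RefSeq gene tables matched 0 of the 61 IDs, and no sequence was used here.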

Additional observations from a re-analysis of the deposited data

How the results depend on the processing

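The number called higher at the 1K-cell stage (38 of 61, none lower) lay between 27 and 43 when 1 embryo was left out, and at 30 to 43 under the other settings run. Over all transcripts the median log2 change moved to -0.11 in CPM from 0.01, with 35 of the 61 called; 3 transcripts near the top of the table that are not among the 61 held 7.40% of all 1K-cell counts and 1.27% of 64-cell counts. The replicate block called 43 of 61 and 634 of all transcripts (919 without it). Deviations of same-numbered embryos of the 1K-cell and 64-cell stages correlated at 0.10, 0.02 and -0.03. Those of differently numbered embryos correlated at -0.16 to 0.14. Whether embryos of the same number share parents or an experiment was not tested. The section call at 1K cells (1) became 10 with DESeq2, 3 at an adjusted p under 0.05, 0 with TMM and with no replicate block, and 0 in every fit with 1 embryo left out. The section call at 64 cells became 0 with no replicate block and without the libraries above 4500000 counts, and 0 to 1 with 1 embryo left out. The number of transcripts chosen was 96 at a 64-cell minimum of 50, 29 at 200, and 38 without the libraries above 4500000 counts, an alternative chosen after seeing the data; at 1K cells and for stage by section this alternative could not be fitted. Signs turned for AMEXTC_0340000004563 (0.0054 with the replicate block, -3.93 to 1.82 with 1 embryo left out), for AMEXTC_0340000203519 (-2.94 to 6.32 with 1 embryo left out) and for AMEXTC_0340000068409 (-1.76 without those libraries), none of them called in edgeR. Of 297 values of single transcripts under alternatives, 269 kept direction and side of the threshold, 19 lost and 3 gained a call, and 6 turned. The causes were not tested.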
